A study of Danio rerio with 20 samples.

Results

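The genes described here are the zebrafish genes of glycolysis and gluconeogenesis that the study's own pathway lists hold under 2 headings, glycolysis/gluconeogenesis and the PFKFB enzymes. Of 82 genes under these headings, 18 also stand under the pentose phosphate cycle and 9 more were set aside by name, which left 55 members of the 32512 genes in the count table. The choice used pathway lists and gene names and no measured value, but it was made with earlier results of these data known.

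RNA was sequenced from whole larvae at 5 dpf, pooled by 30 and kept in a cycle of light and dark, at ZT3, ZT9, ZT15 and ZT21 (hours after lights on). The 3 untreated genotypes were wild-type siblings, the strong mutants (rx3t25327/t25327, here rx3 strong) and the weak mutants (rx3t25181/t25181, here rx3 weak); the column names list them as vehicle (DMSO) controls. Wild-type siblings and rx3 strong were also raised in 25 µM dexamethasone (DEX, a synthetic glucocorticoid). The strains were mixed TU, AB and WIK according to the labels, each of the 20 libraries is the only one of its condition and time point, and the 4 time points stand in for replicates. Both mutants are eyeless, and per the study rx3 strong has few ACTH-producing pituitary cells and low cortisol while rx3 weak has normal cortisol. The study took rx3 weak as its control for the missing eyes, though eye markers also differed between the mutants, as given below. In a whole larva, fewer cells of one type and less RNA per cell cannot be told apart.

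Glycolysis breaks glucose down to pyruvate, which is reduced to lactate or enters the mitochondrial pyruvate dehydrogenase complex. Gluconeogenesis runs the other way, from pyruvate and oxaloacetate to free glucose, and in vertebrates it is the liver's answer to fasting and one of the processes that glucocorticoids are named for. The PFKFB enzymes make and remove fructose 2,6-bisphosphate, the signal that sets the balance between both directions.

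The untreated libraries held between 16427280 and 22204708 counted reads, and the DEX libraries between 12586879 and 49738048. The members took from 0.707% to 0.842% of the counts in untreated larvae and from 0.841% to 1.07% under DEX. Transcripts of rx3 itself gave between 82 and 128 counts in untreated wild-type siblings, 31 to 50 in rx3 weak and 44 to 57 in rx3 strong, with log2 differences from wild-type siblings of -1.50 (adjusted p = 4.01e-05) and -1.06 (adjusted p = 0.000952). The summed level of 9 photoreceptor markers was 1908 to 2568 CPM (counts per 1000000 reads) in untreated wild-type siblings, 61.5 to 166 in rx3 weak and 12.6 to 21.8 in rx3 strong. All 9 were lower in each mutant and none was at 0 reads in any library. All 9 were also lower in rx3 strong than in rx3 weak (median log2 -2.71), as were 5 of 5 lens markers (-3.12). By these markers the mutants are not matched for eye tissue. Untreated and DEX libraries were made with different library kits according to the labels, so kit and drug cannot be told apart, and levels are compared only between genotypes within each set.

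In untreated larvae, 24 of the 55 members differed between rx3 strong and wild-type siblings, 12 higher and 12 lower. These are 21.8% in each direction, where 8.4% of the 22845 genes tested were higher and 10.2% lower. A call here and below is an adjusted p under 0.05 in edgeR's quasi-likelihood test, with p-values adjusted over all genes tested. The members' median mean count of 592 stood above the 214 of all genes tested, and the part of depth in these shares was not tested. The median log2 difference was -0.04 over the members and 0.01 over all genes. Between rx3 weak and wild-type siblings, 14 members differed, 7 higher and 7 lower, or 12.7% in each direction against 6.42% and 7.63% of all genes. Without rx3 weak at ZT3 only 6 remained called, 2 higher and 4 lower, beside 2381 of 22760 genes. The members' share was then close to that of all genes. Between rx3 strong and rx3 weak, 12 differed, 5 higher (9.09%, against 4.68% of all genes) and 7 lower (12.7%, against 7.08%). Without rx3 weak at ZT9, 8 members (4 of them lower) and 2011 of 22774 genes were called. Between rx3 strong and wild-type siblings, 17 members (7 of them lower) and 3479 of 22795 genes were called without rx3 strong at ZT9. Without a term for time, 14 of the 24 calls, 7 of the 14 and 6 of the 12 remained, beside 2078, 1652 and 1059 of 22078 genes. The 27 other genes under the same headings gave 6 higher and 8 lower for rx3 strong and 6 higher and 4 lower for rx3 weak, each against wild-type siblings. Both mutants were compared with the same wild-type libraries, so calls that they share here and below are not independent.

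**Figure D1:**
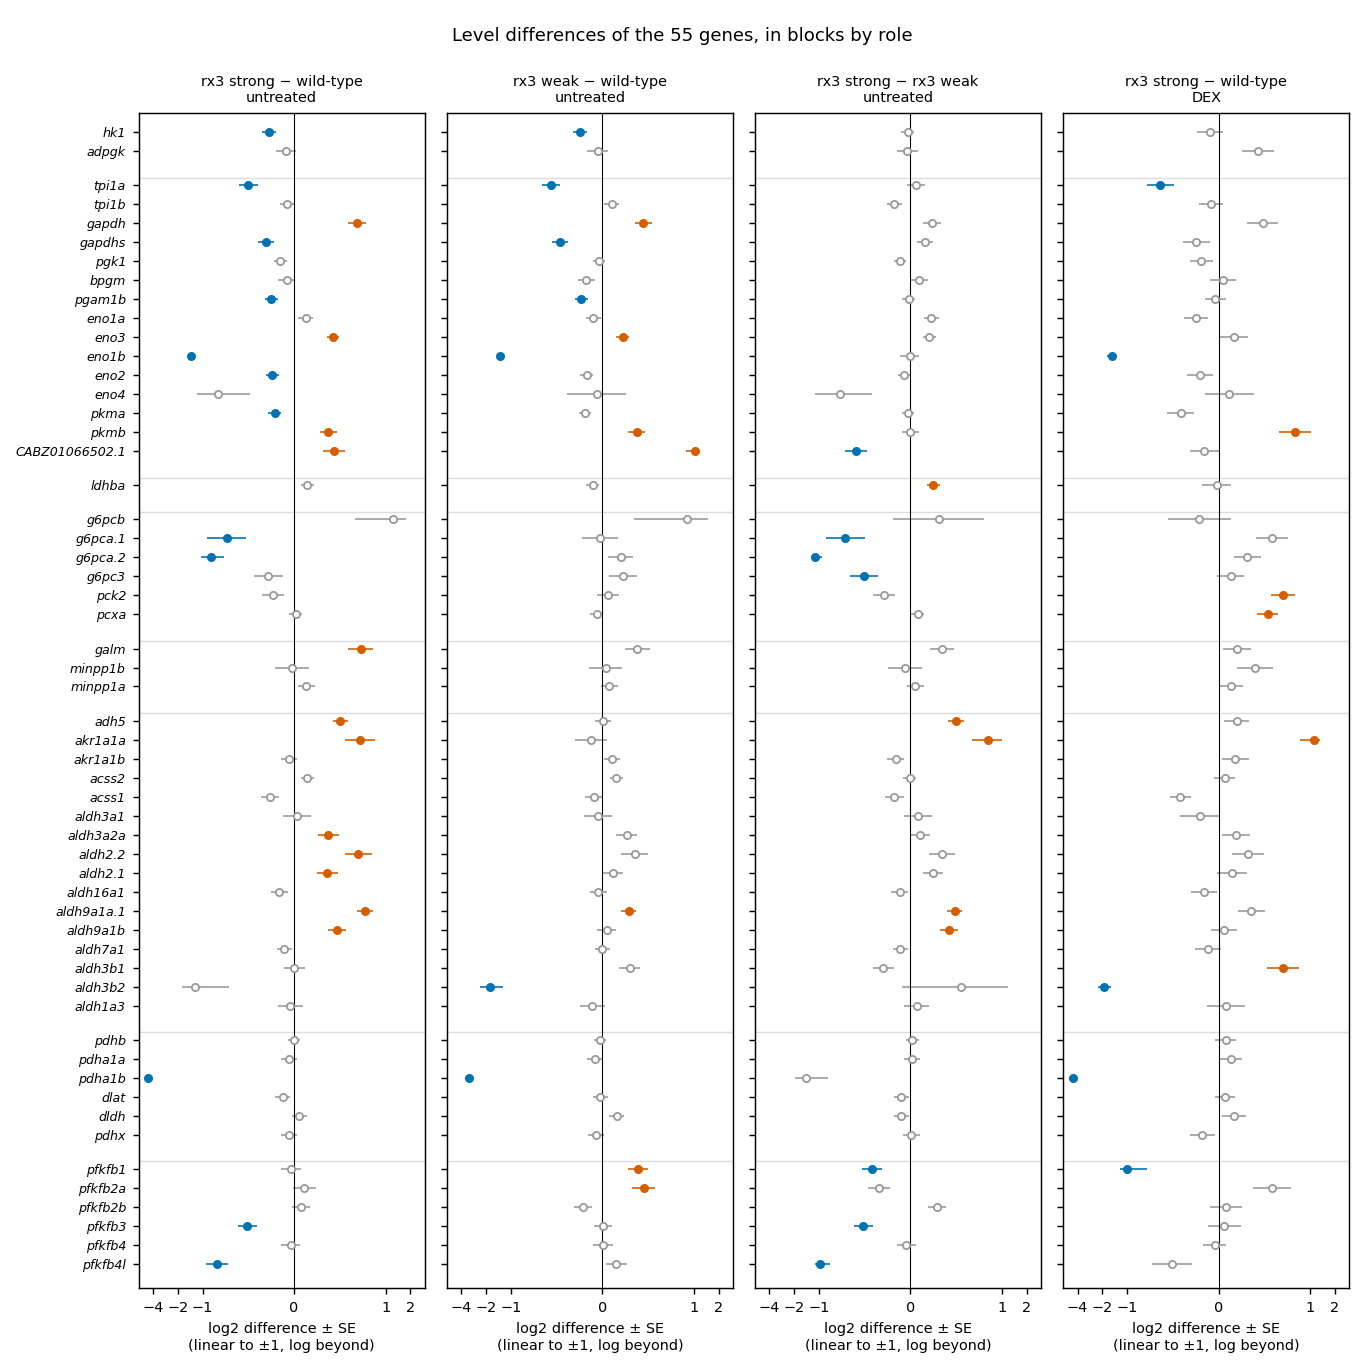
Log2 differences in level of the 55 members for the 3 untreated comparisons and for rx3 strong against wild-type siblings under DEX, in blocks by role, with standard errors as bars (hidden where shorter than the point). Filled points passed the threshold (orange higher, blue lower); pdha1b lies farthest to the left in each comparison with wild-type siblings, and for rx3 strong against wild-type siblings g6pca.1, g6pca.2 and g6pc3 lie left of 0 untreated and right of 0 under DEX.

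Of the 4 copies of glucose-6-phosphatase, 3 were lower in untreated rx3 strong than in rx3 weak. Of 6 members of gluconeogenesis, 2 were lower in rx3 strong than in wild-type siblings and 3 were lower than in rx3 weak, none was higher, and rx3 weak differed from wild-type siblings in none. Of all genes, 10.2% were lower in rx3 strong than in wild-type siblings and 7.08% than in rx3 weak. The gluconeogenesis members called here all encode glucose-6-phosphatase, the enzyme that releases free glucose. The group's median log2 difference was -0.25 for rx3 strong and 0.13 for rx3 weak, each against wild-type siblings.

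The most abundant of them, g6pca.2, measured 103, 71.2, 42.9 and 84.8 CPM at ZT3, ZT9, ZT15 and ZT21 in wild-type siblings. In rx3 weak it measured 123, 95.1, 36.7 and 100.8 CPM, and in rx3 strong 42.2, 34.6, 30.9 and 45.9 CPM. The rx3 strong library was the lowest of the genotypes at each time point, and the groups overlapped only through the trough at ZT15. The log2 difference was -0.91 ± 0.14 (SE) from wild-type siblings (0.533-fold, adjusted p = 0.00014) and -1.11 ± 0.14 from rx3 weak (0.464-fold, adjusted p = 2.79e-05). Without a term for time, the difference from wild-type siblings lost its call (adjusted p = 0.0726).

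The second liver-type copy, g6pca.1, was far less abundant, at 6.29, 7.02, 3.60 and 3.96 CPM in wild-type siblings. It measured 9.08, 4.97, 2.88 and 4.33 CPM in rx3 weak and 4.96, 2.28, 2.88 and 2.48 CPM in rx3 strong. It was lower in rx3 strong than in wild-type siblings at 4 of 4 time points (log2 -0.74 ± 0.21, adjusted p = 0.0212) and than in rx3 weak at 3 of 4 (-0.71 ± 0.21, adjusted p = 0.0346). The first call was lost without either ZT9 library of these groups (adjusted p up to 0.125) and the second without any 1 of 6 libraries (adjusted p up to 0.195). The form that mammals express in most tissues, g6pc3, measured 5.25, 6.03, 6.08 and 5.13 CPM in rx3 weak and 3.97, 4.42, 4.58 and 2.94 in rx3 strong, without overlap (log2 -0.51 ± 0.15, adjusted p = 0.0354). That call was lost without any 1 of 6 libraries (adjusted p up to 0.142). The remaining copy, g6pcb, had 6, 1, 8 and 4 counts in wild-type siblings, 8, 8, 7 and 16 in rx3 weak and 12, 16, 13 and 5 in rx3 strong. Its log2 differences were above 0 and did not pass (1.23 ± 0.56 for rx3 strong against wild-type siblings, adjusted p = 0.144, and 0.31 ± 0.50 against rx3 weak, adjusted p = 0.774).

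Per kilobase of gene length, g6pca.2 made up 85.1% of the glucose-6-phosphatase transcripts in wild-type siblings, 86.0% in rx3 weak and 79.9% in rx3 strong. The mitochondrial form of phosphoenolpyruvate carboxykinase, pck2, measured 223, 159, 117 and 225 CPM in wild-type siblings, 264, 172, 99.1 and 238 in rx3 weak and 161, 145, 126 and 163 in rx3 strong. The log2 difference of rx3 strong from wild-type siblings, -0.23 ± 0.12, did not pass (adjusted p = 0.215), and rx3 strong was the lower of these at 3 of 4 time points. Pyruvate carboxylase (pcxa), which makes oxaloacetate, ranged from 179 to 192 CPM among the wild-type libraries and from 164 to 204 among those of rx3 strong (log2 0.02 ± 0.07, adjusted p = 0.905). The summed level of 5 glucocorticoid response markers was 298 to 443 CPM in wild-type siblings, 316 to 388 in rx3 weak and 189 to 244 in rx3 strong. In rx3 strong, 3 of the 5 were called lower than in wild-type siblings and 3 than in rx3 weak. The 8 liver markers summed to 3537 to 4844, 3822 to 6222 and 5586 to 6126 CPM, with 6 of the 8 called higher in rx3 strong than in wild-type siblings. The 3 intestine markers summed to 998 to 1620, 911 to 1624 and 840.5 to 1083 CPM, lowest in rx3 strong at each time point. Against wild-type siblings, pituitary, photoreceptor and lens markers were called lower too (2 of 3, 9 of 9 and 5 of 5), and skeletal muscle and endocrine pancreas markers higher (5 of 5 and 2 of 3). Exocrine pancreas had 4 of 5 called lower than in rx3 weak. Their part in these differences was not tested.

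Under DEX the group had 2 members called higher in rx3 strong and none lower, beside 3.4% and 4.4% of all genes. The interaction of genotype and DEX passed for 3 members, all of gluconeogenesis. These 3 are 5.45% of the members, where 1.41% of 23546 genes had a positive interaction, and 0 members had a negative one against 0.815% of all genes. By edgeR, 14 of the 55 members and 3204 of the 23546 genes had an interaction at an unadjusted p under 0.05, and DESeq2 called 1 member negative.

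Under DEX, g6pca.2 measured 165, 212, 111 and 130 CPM in wild-type siblings and 206, 205, 132 and 216 in rx3 strong. The groups overlapped, and the difference between them did not pass (log2 0.31 ± 0.15, adjusted p = 0.267). Set against -0.91 in untreated larvae, the interaction was 1.21 ± 0.20 (adjusted p = 0.00619), and it kept its call without each library in turn (adjusted p up to 0.0284). For g6pca.1 the DEX values were 26.6, 29.3, 20.0 and 20.5 CPM in wild-type siblings and 36.3, 32.7, 27.5 and 49.1 in rx3 strong. Rx3 strong was higher at 4 of 4 time points, which did not pass within the DEX libraries (log2 0.58 ± 0.18, adjusted p = 0.0843). Its interaction of 1.29 ± 0.30 (adjusted p = 0.0424) was lost without any 1 of 12 libraries (adjusted p up to 0.138). These 12 are not separate checks, since leaving out either genotype at a time point gives nearly the same fit.

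For pck2 the DEX values were 167, 194, 130 and 271 CPM in wild-type siblings and 274, 286, 252 and 401 in rx3 strong. It was higher in rx3 strong at 4 of 4 time points, with 1 wild-type library inside the range of rx3 strong (log2 0.70 ± 0.13, 1.63-fold, adjusted p = 0.00931). The call was lost without either ZT15 library (adjusted p up to 0.0548), and the interaction of 0.92 ± 0.16 (adjusted p = 0.011) was lost without either untreated ZT3 library of these genotypes (adjusted p up to 0.0554). Under DEX, pcxa measured 97.4, 113, 91.9 and 102 CPM in wild-type siblings and 149, 168, 133 and 135 in rx3 strong, without overlap (log2 0.54 ± 0.11, adjusted p = 0.0183). That call was lost without any 1 of 6 libraries (adjusted p up to 0.0945), and its interaction of 0.49 ± 0.13 did not pass (adjusted p = 0.0632). The glucocorticoid response markers summed to 1246 to 1427 CPM in wild-type siblings and 1290 to 1617 in rx3 strong under DEX, so the ranges overlapped there. Of the 5 markers, 1 was called lower in rx3 strong. The 8 liver markers summed to 7901, 6383, 4720 and 4370 CPM in wild-type siblings and to 10600, 9294, 5046 and 7588 in rx3 strong. They were higher in rx3 strong at each time point, as pck2 and pcxa were, with 1 of the 8 called higher and a median log2 difference of 0.51. So were the sums of 3 erythrocyte markers (2 called higher) and 2 heart markers (0 called), while the other marker sums were lower or mixed. The part of these markers in the DEX differences was not tested.

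**Figure D2:**
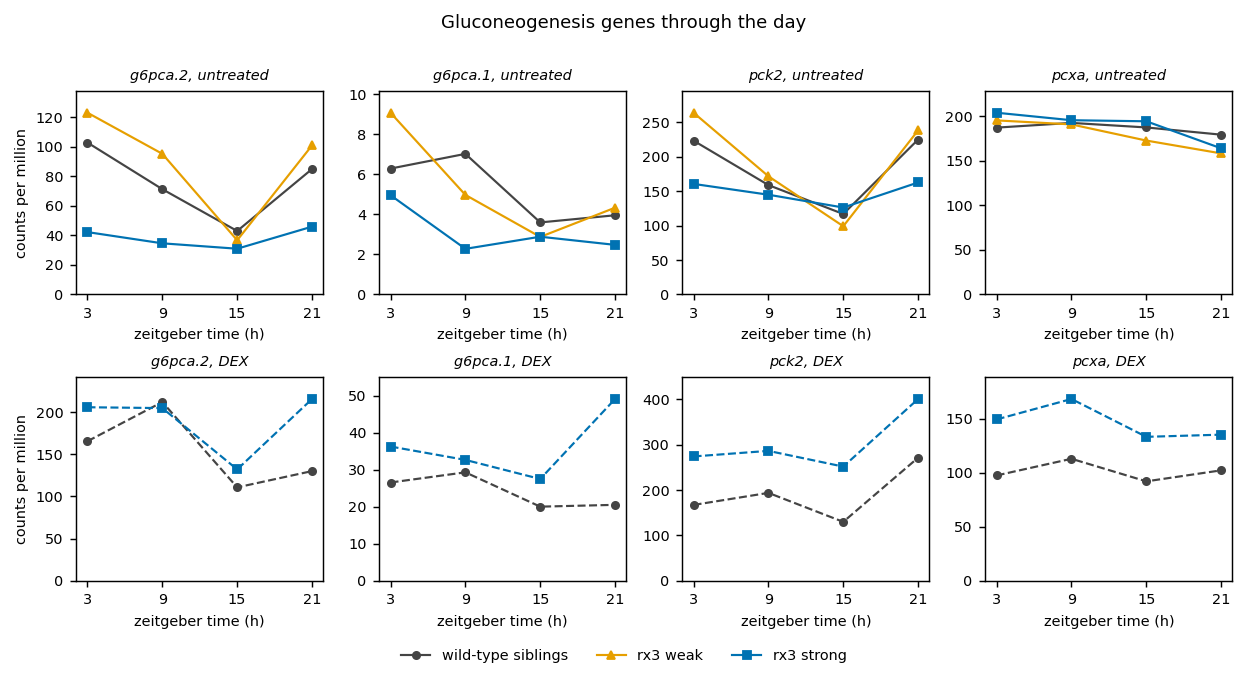
CPM of g6pca.2, g6pca.1, pck2 and pcxa against zeitgeber time, 1 library per point, untreated above and DEX below, with each panel's axis starting at 0 and scaled on its own. In untreated larvae the rx3 strong line of g6pca.2 stays between 30.9 and 45.9 while the other genotypes reach 103 and 123; under DEX the rx3 strong line of pck2 lies above that of wild-type siblings at each time point.

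Among the PFKFB enzymes, 2 of 6 were lower in untreated rx3 strong than in wild-type siblings, and 3 of 6 were lower than in rx3 weak. The shares of all genes were 10.2% and 7.08%. The kinase domain of the PFKFB enzymes makes fructose 2,6-bisphosphate, which activates phosphofructokinase and restrains gluconeogenesis, and their phosphatase domain removes it. The largest difference was that of pfkfb4l, which measured 36.7, 36.1, 24.6 and 42.2 CPM in wild-type siblings, 43.0, 41.4, 32.6 and 37.1 in rx3 weak and 19.2, 19.9, 20.1 and 17.4 in rx3 strong. All rx3 strong libraries lay below all others. The log2 difference was -0.84 ± 0.12 from wild-type siblings (adjusted p = 3.53e-05) and -0.99 ± 0.12 from rx3 weak (adjusted p = 8.37e-06).

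The inducible form in mammals, pfkfb3, measured 39.4, 39.6, 32.9 and 51.1 CPM in wild-type siblings, 40.7, 41.0, 39.8 and 40.7 in rx3 weak and 32.2, 30.4, 24.9 and 26.3 in rx3 strong. Rx3 strong again lay below the others without overlap (log2 -0.51 ± 0.10 from wild-type siblings, adjusted p = 0.00141, and -0.51 ± 0.10 from rx3 weak, adjusted p = 0.00196). By contrast pfkfb1, the liver and muscle form in mammals, and pfkfb2a were higher in rx3 weak than in wild-type siblings (log2 0.39 ± 0.11, adjusted p = 0.0193, and 0.45 ± 0.12, adjusted p = 0.0177). Pfkfb1 measured 13.1, 10.2, 12.8 and 16.5 CPM in wild-type siblings, 17.1, 16.5, 16.97 and 17.9 in rx3 weak and 12.4, 12.5, 11.99 and 14.2 in rx3 strong. For pfkfb2a the values were 10.8, 12.7, 12.1 and 8.65 CPM in wild-type siblings and 15.5, 16.2, 16.5 and 12.04 in rx3 weak. In each case the highest wild-type library reached the lowest of rx3 weak. Those calls were lost without any 1 of 6 libraries for pfkfb1 (adjusted p up to 0.125) and of 5 for pfkfb2a (adjusted p up to 0.1). Pfkfb1 was lower in rx3 strong than in rx3 weak (-0.42 ± 0.11, adjusted p = 0.0135), a call lost without rx3 weak at ZT9 (adjusted p = 0.0726).

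Under DEX, pfkfb4l lay between 146 and 330 CPM in wild-type siblings and between 116 and 152 in rx3 strong (log2 -0.51 ± 0.22, adjusted p = 0.223). For pfkfb3 these ranges were 90.9 to 174 and 128 to 148 CPM (log2 0.06 ± 0.18, adjusted p = 0.914). Neither interaction passed (0.30 ± 0.29, adjusted p = 0.747, and 0.54 ± 0.23, adjusted p = 0.313), so a change of the genotype difference with DEX was not shown for these genes. Under DEX it was pfkfb1 that was lower in rx3 strong, at 6.43, 8.64, 6.91 and 11.1 CPM against 22.9, 13.1, 16.6 and 14.9 in wild-type siblings (log2 -1.01 ± 0.23, adjusted p = 0.025). The groups did not overlap, and the call was lost without any 1 of 4 libraries (adjusted p up to 0.0936).

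The enzymes from triose phosphates to pyruvate split by gene copy. Of 15 members, 4 were higher and 6 lower in rx3 strong than in wild-type siblings, and 4 were higher and 4 lower in rx3 weak. Of all genes, 8.4% were higher and 10.2% lower in rx3 strong, and 6.42% and 7.63% in rx3 weak. Between rx3 strong and rx3 weak only CABZ01066502.1 differed among these 15. Copies of the same enzyme moved in opposite directions, so that the change of a step cannot be read from 1 copy.

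Enolase, which makes phosphoenolpyruvate, shows this most plainly. Eno1b measured 59.5, 50.1, 42.8 and 67.3 CPM in wild-type siblings, 27.4, 18.7, 17.7 and 21.1 in rx3 weak and 22.6, 22.7, 17.6 and 20.98 in rx3 strong. All mutant libraries lay below all wild-type libraries, with log2 differences of -1.37 ± 0.10 in rx3 weak (adjusted p = 8.67e-09) and -1.38 ± 0.10 in rx3 strong (adjusted p = 6.61e-09). Eno3, the muscle enolase in mammals, measured 708, 678, 643 and 680 CPM in wild-type siblings, 806, 765, 778 and 808 in rx3 weak and 891, 876, 852 and 1022 in rx3 strong. It was higher in rx3 strong by 0.43 ± 0.07 on the log2 scale (adjusted p = 0.000217) and in rx3 weak by 0.22 ± 0.07 (adjusted p = 0.0416), the latter call lost without any 1 of 9 libraries (adjusted p up to 0.196).

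Eno2, the neuronal form in mammals, was lower in rx3 strong (-0.24 ± 0.07, adjusted p = 0.0286), a call lost without any 1 of 5 libraries (adjusted p up to 0.0926). Per kilobase, eno3 made up 58.1% of the enolase transcripts in wild-type siblings, 64.9% in rx3 weak and 66.2% in rx3 strong, and eno1b 3.20%, 1.19% and 1.04%. Eno4 was near the lower limit, with 7 to 34 counts in untreated libraries.

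Glyceraldehyde-3-phosphate dehydrogenase had the same split. Gapdh measured 627, 716, 653 and 703 CPM in wild-type siblings, 962, 882, 873 and 965 in rx3 weak and 914, 936, 1272 and 1245 in rx3 strong, with no overlap between wild-type siblings and either mutant. The log2 differences were 0.69 ± 0.10 in rx3 strong (1.61-fold, adjusted p = 3.45e-05) and 0.45 ± 0.10 in rx3 weak (1.37-fold, adjusted p = 0.00293). Gapdhs measured 266, 284, 197 and 201 CPM in wild-type siblings, 204, 178, 140 and 163 in rx3 weak and 204, 183, 182 and 188 in rx3 strong. It was lower at 4 of 4 time points in each mutant, with log2 differences of -0.31 ± 0.09 in rx3 strong (adjusted p = 0.0195) and -0.47 ± 0.09 in rx3 weak (adjusted p = 0.00104). The call for rx3 strong was lost without any 1 of 4 libraries (adjusted p up to 0.111).

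The minor copy of triosephosphate isomerase, tpi1a, measured 15.96, 17.9, 17.3 and 18.04 CPM in wild-type siblings and was lower without overlap in rx3 weak, at 12.1, 12.2, 10.1 and 12.6 CPM (log2 -0.56 ± 0.10, adjusted p = 0.000695). In rx3 strong it measured 12.4, 12.2, 11.3 and 13.1 CPM (log2 -0.50 ± 0.10, adjusted p = 0.00156). The major copy tpi1b, with 97.4% of the transcripts per kilobase in wild-type siblings, gave no call in any level comparison. Phosphoglycerate mutase (pgam1b) was lower in rx3 strong and in rx3 weak by small amounts (log2 -0.25 ± 0.07, adjusted p = 0.0234, and -0.23 ± 0.07, adjusted p = 0.0443). These calls were lost without any 1 of 5 and of 8 libraries (adjusted p up to 0.0814 and 0.142).

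Pyruvate kinase has 3 copies here. Pkmb, an M-type form, measured 409, 445, 392 and 394 CPM in wild-type siblings and was higher without overlap in rx3 weak, at 571, 508, 548 and 504 CPM (log2 0.38 ± 0.09, adjusted p = 0.00965), and in rx3 strong, at 490, 470, 526 and 649 CPM (log2 0.38 ± 0.09, adjusted p = 0.00795). Both calls were lost without wild-type siblings at ZT15 or ZT21, and the first also without rx3 weak at ZT3 (adjusted p up to 0.0696 and 0.0685). Pkma, the other M-type form, was lower in rx3 strong (-0.21 ± 0.07, adjusted p = 0.0319), a call lost without any 1 of 5 libraries (adjusted p up to 0.105).

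The copy listed as CABZ01066502.1, which the gene name table pairs with PKLR, the liver and red cell form, was the one member of this step that set rx3 weak apart. It measured 34.2, 41.4, 54.1 and 65.6 CPM in wild-type siblings, 51.8, 76.9, 134 and 155 in rx3 weak and 53.4, 51.1, 75.9 and 80.3 in rx3 strong. The log2 difference from wild-type siblings was 1.03 ± 0.12 in rx3 weak (2.04-fold, adjusted p = 3.65e-06) and 0.44 ± 0.12 in rx3 strong (1.35-fold, adjusted p = 0.0141). Rx3 strong was lower than rx3 weak (log2 -0.59 ± 0.12, adjusted p = 0.0019) at 3 of 4 time points, and without a term for time this call was lost (adjusted p = 0.288). The call of rx3 strong against wild-type siblings was lost without wild-type siblings at ZT15 or ZT21 or rx3 strong at ZT3 (adjusted p up to 0.0891).

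Of the pyruvate dehydrogenase complex, which turns pyruvate into acetyl-CoA, 1 of 6 members differed, and it was lower in each mutant. Of all genes, 10.2% were lower in rx3 strong and 7.63% in rx3 weak, so a count of 1 says little about the complex. Pdha1b, the minor copy of the E1 alpha subunit, had 104, 78, 73 and 135 counts in wild-type siblings (3.86 to 7.12 CPM), 17, 9, 8 and 11 in rx3 weak and 5, 2, 8 and 0 in rx3 strong. The mutants lay below wild-type siblings without overlap, by log2 -3.23 ± 0.33 in rx3 weak (adjusted p = 9.68e-07) and -4.67 ± 0.40 in rx3 strong (adjusted p = 6.32e-08). The fitted size in rx3 strong rests on 15 reads over its 4 libraries. Pdha1a, the major copy, held 96.3% of the transcripts per kilobase in wild-type siblings and was not called, and neither were pdhb, dlat, dldh and pdhx.

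Hexokinase (hk1), which traps glucose in the cell, was lower in rx3 strong (log2 -0.27 ± 0.07, adjusted p = 0.0129) and in rx3 weak (-0.24 ± 0.07, adjusted p = 0.032). It measured 191, 177, 152 and 178 CPM in wild-type siblings, 147, 146, 147 and 149 in rx3 weak and 147, 140, 130 and 161 in rx3 strong, and rx3 strong overlapped wild-type siblings. The first call was lost without wild-type siblings at ZT3 (adjusted p = 0.0688) and the second without any 1 of 5 libraries (adjusted p up to 0.143). Adpgk, the ADP-dependent glucokinase, gave no call. Lactate dehydrogenase ldhba measured 588, 562, 497 and 517 CPM in wild-type siblings, 614, 482, 452 and 472 in rx3 weak and 638, 636, 535 and 580 in rx3 strong. It was higher in rx3 strong than in rx3 weak (0.25 ± 0.07, adjusted p = 0.0316), a call lost without any 1 of 5 libraries (adjusted p up to 0.147).

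Beside these genes, summed markers of other tissues moved with genotype. The photoreceptor and lens sums were lower in each mutant, as eno1b, pdha1b, tpi1a, gapdhs, hk1 and pgam1b were. A sum of 2 neuron markers was also lower without overlap, at 368 to 428 CPM in wild-type siblings, 273 to 354 in rx3 weak and 313 to 354 in rx3 strong, with 1 of the 2 called lower in each mutant, beside eno2, which was called lower in rx3 strong. The sum of 5 skeletal muscle markers was 22760 to 23020 CPM in wild-type siblings, 25160 to 27660 in rx3 weak and 29290 to 34500 in rx3 strong, with 3 and 5 of the markers called higher, as gapdh, eno3 and pkmb were. Endocrine pancreas markers rose too, at 25.0 to 27.6, 30.0 to 36.5 and 32.0 to 46.3 CPM, with 1 and 2 of 3 called higher. Of 8 liver markers, 2 and 6 were called higher. Exocrine pancreas had 4 of 5 called higher in rx3 weak, and 1 higher and 1 lower in rx3 strong. For lens, 5 markers summed to 1194 to 1457, 128 to 205 and 11.7 to 25.4 CPM. The part of these tissues in the genes' differences was not tested.

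**Figure D3:**
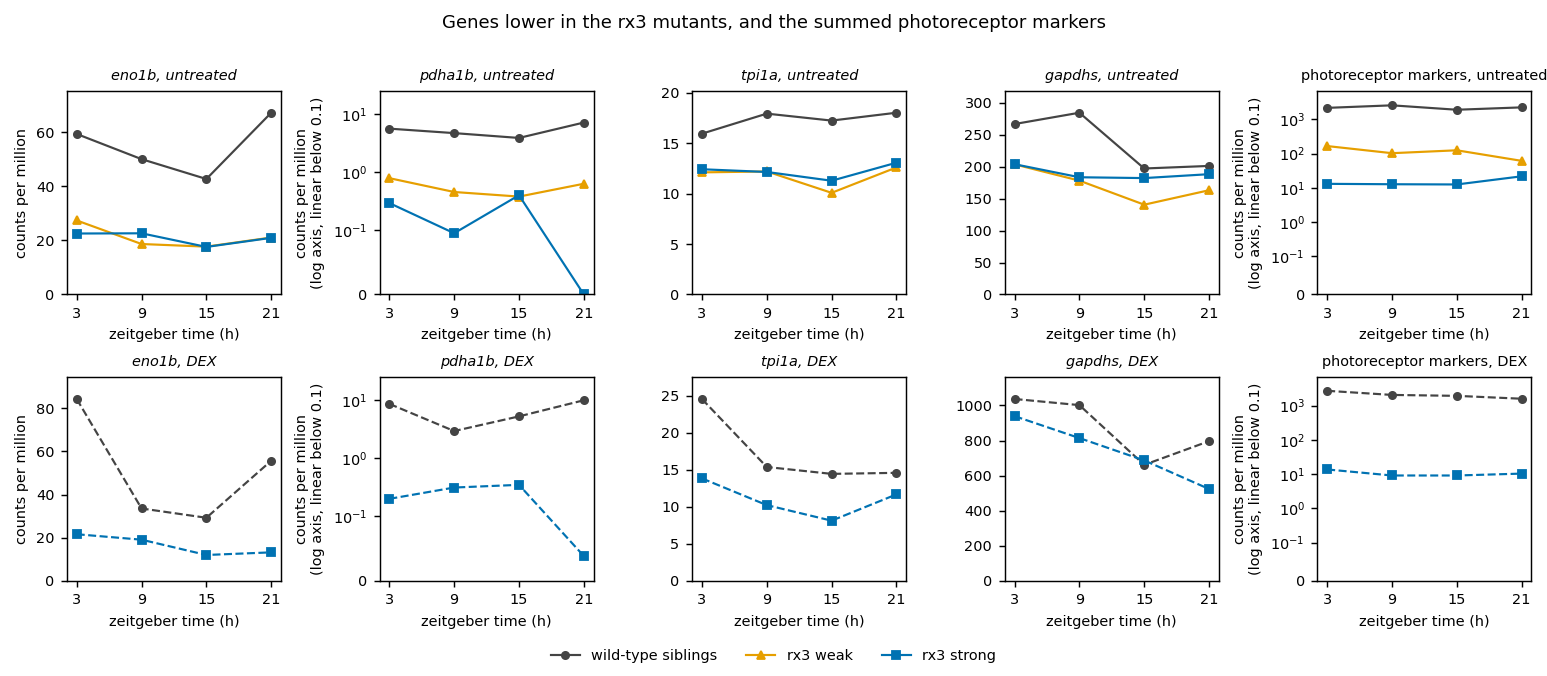
CPM of eno1b, pdha1b, tpi1a and gapdhs and the sum of 9 photoreceptor markers against zeitgeber time, 1 library per point, untreated above and DEX below; pdha1b and the marker sum are on a log axis that is linear below 0.1. Eno1b lies between 42.8 and 67.3 in untreated wild-type siblings and between 17.6 and 27.4 in the mutants, with rx3 weak and rx3 strong close together, while the marker sum separates all genotypes.

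Enzymes of acetate, alcohols and aldehydes were the largest group with 16 members, and 7 of them were higher and none lower in rx3 strong than in wild-type siblings. In rx3 weak, 1 was higher and 1 lower. Against rx3 weak, 4 were higher in rx3 strong. Of all genes, 8.4% were higher and 10.2% lower in rx3 strong than in wild-type siblings. In rx3 weak these shares were 6.42% and 7.63%, and 4.68% were higher in rx3 strong than in rx3 weak. The group's median log2 difference was 0.09 for rx3 strong and 0.03 for rx3 weak, each against wild-type siblings. Of the members not called for rx3 strong, aldh3b2 lay farthest from 0 (log2 -1.25 ± 0.53, adjusted p = 0.119), followed by the acetyl-CoA synthetase acss1 (-0.26 ± 0.10, adjusted p = 0.0728). Liver markers moved the same way as the members that rose, with 6 of 8 called higher and none lower in rx3 strong against wild-type siblings and 5 of 8 against rx3 weak. Skeletal muscle markers (5 of 5 and 3 of 5) and endocrine pancreas markers (2 of 3 and 1 of 3) did so too, while all photoreceptor and lens markers were lower. The part of these tissues was not tested.

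Aldh9a1a.1, of the enzyme family that acts in carnitine synthesis in mammals, measured 491, 556, 518 and 557 CPM in wild-type siblings, 664, 611, 708 and 603 in rx3 weak and 816, 888, 875 and 1054 in rx3 strong. The 3 groups did not overlap. The log2 difference from wild-type siblings was 0.77 ± 0.08 in rx3 strong (1.71-fold, adjusted p = 1.47e-06) and 0.29 ± 0.08 in rx3 weak (adjusted p = 0.0261, lost without any 1 of 6 libraries, up to an adjusted p of 0.131). From rx3 weak, rx3 strong differed by 0.49 ± 0.08 (adjusted p = 0.000545).

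Adh5, the class III alcohol dehydrogenase that clears formaldehyde, measured 74.7, 82.3, 72.9 and 75.9 CPM in wild-type siblings and 75.2, 73.5, 78.6 and 80.8 in rx3 weak. In rx3 strong it measured 103, 94.1, 126 and 112 CPM, above every other untreated library. The differences were 0.51 ± 0.08 from wild-type siblings (adjusted p = 0.000252) and 0.50 ± 0.08 from rx3 weak (adjusted p = 0.00048), and rx3 weak did not differ from wild-type siblings by this test.

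Akr1a1a, an aldehyde reductase, measured 6.67, 3.90, 4.45 and 3.22 CPM in wild-type siblings, 5.30, 2.91, 4.48 and 3.88 in rx3 weak and 7.82, 7.70, 6.92 and 6.80 in rx3 strong. Rx3 strong lay above the others without overlap (log2 0.72 ± 0.17 from wild-type siblings, adjusted p = 0.0048, lost without a term for time at an adjusted p of 0.0699, and 0.84 ± 0.17 against rx3 weak, adjusted p = 0.00201). Aldh2.2, a mitochondrial acetaldehyde dehydrogenase, measured 5.80, 7.26, 5.35 and 6.49 CPM in wild-type siblings and 9.86, 11.1, 10.8 and 8.41 in rx3 strong, without overlap (log2 0.70 ± 0.14, adjusted p = 0.00181). Aldh9a1b, aldh3a2a and aldh2.1 rose by 0.36 to 0.47 on the log2 scale in rx3 strong (adjusted p between 0.00303 and 0.0328). Single libraries decided the calls of aldh3a2a (4 libraries, adjusted p up to 0.151) and aldh2.1 (6 libraries, adjusted p up to 0.168). Aldh3b2 was lower in rx3 weak (log2 -1.80 ± 0.56, adjusted p = 0.0402) on 6, 3, 3 and 2 counts against 19, 5, 4 and 20 in wild-type siblings, and the call was lost without any 1 of 5 libraries (adjusted p up to 0.16).

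Of the side entries, galactose mutarotase (galm) was higher in rx3 strong, at 14.5, 14.8, 14.1 and 15.96 CPM against 8.87, 9.66, 8.36 and 9.02 in wild-type siblings and 14.9, 9.04, 12.5 and 10.4 in rx3 weak, overlapping only the latter (log2 0.73 ± 0.13 from wild-type siblings, adjusted p = 0.000701). The inositol polyphosphate phosphatases minpp1a and minpp1b gave no call.

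**Figure D4:**
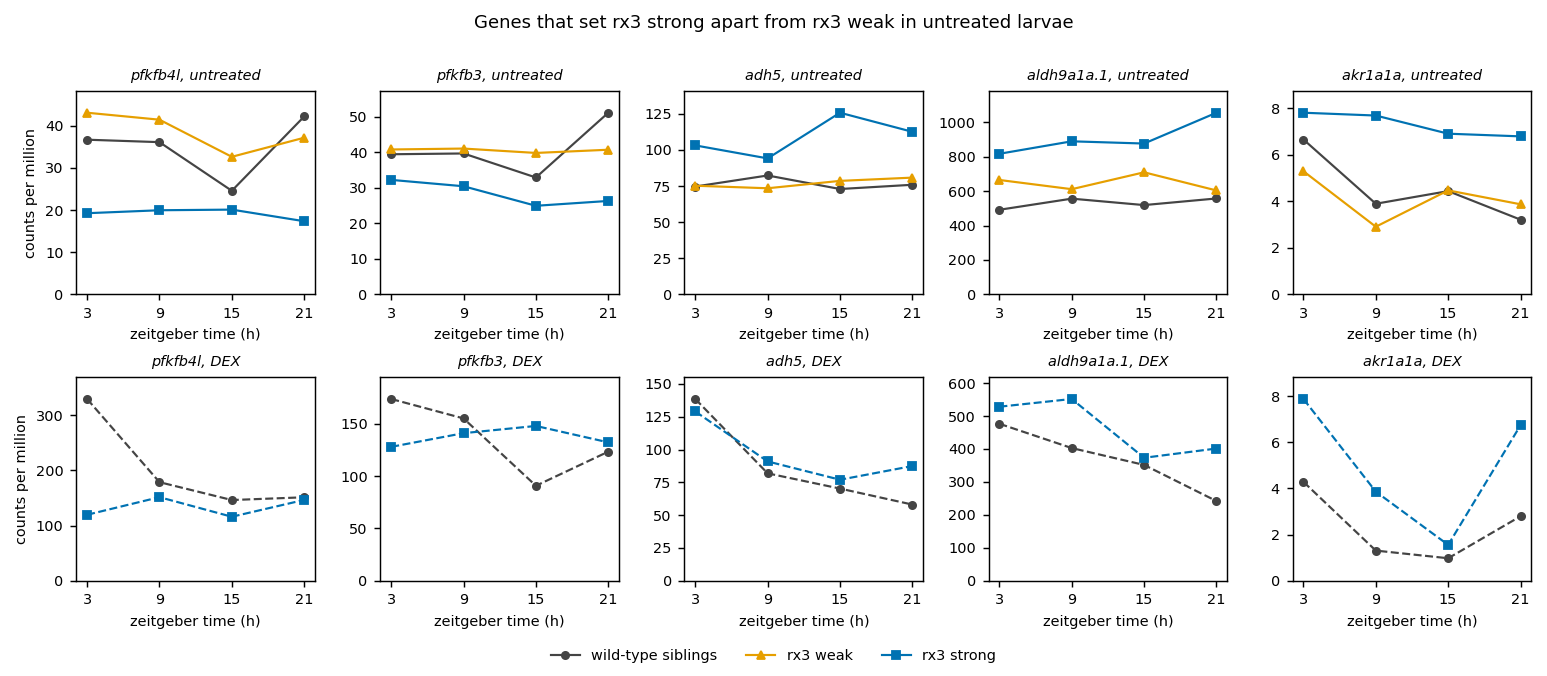
CPM of pfkfb4l, pfkfb3, adh5, aldh9a1a.1 and akr1a1a against zeitgeber time, 1 library per point, untreated above and DEX below, each axis starting at 0 and scaled on its own. In untreated larvae rx3 strong lies below the other genotypes for pfkfb4l (17.4 to 20.1) and above them for adh5 (94.1 to 126); under DEX the genotypes overlap in each of these 5 panels.

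Under DEX, 10 members differed between rx3 strong and wild-type siblings, 5 higher (9.09%, against 3.4% of the 23411 genes tested) and 5 lower (9.09%, against 4.4%). Without either ZT15 library, 1 was higher and 3 were lower, beside 1149 or 1157 of 23808 genes called in either direction. Without a term for time, 3 of the 10 calls remained (eno1b, pdha1b and aldh3b2), beside 585 of 22609 genes. Of the 12 members lower in untreated rx3 strong, 3 were among the 5 lower under DEX (eno1b, pdha1b and tpi1a), and of the 12 higher, 2 were among the 5 higher (akr1a1a and pkmb). These 2 comparisons share no library. How many of all genes were called in both was not counted, so this overlap is not shown to be particular to the members. The other DEX calls were pck2, pcxa and aldh3b1 higher and pfkfb1 and aldh3b2 lower.

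Eno1b measured 84.3, 33.5, 29.2 and 55.7 CPM in wild-type siblings under DEX and 21.6, 19.1, 11.9 and 13.2 in rx3 strong, without overlap (log2 -1.53 ± 0.21, adjusted p = 0.00159). Pdha1b had 91, 97, 276 and 340 counts in wild-type siblings and 5, 15, 13 and 1 in rx3 strong (log2 -4.57 ± 0.49, adjusted p = 0.000332). Tpi1a measured 24.6, 15.4, 14.4 and 14.6 against 13.8, 10.2, 8.12 and 11.7 CPM (log2 -0.64 ± 0.15, adjusted p = 0.0266). The tpi1a call was lost without any 1 of 6 libraries (adjusted p up to 0.11). Gapdhs, hk1 and pgam1b, called lower in both mutants untreated, gave no call under DEX. Their means were 874, 100.7 and 93.9 CPM in wild-type siblings and 741, 93.7 and 91.0 in rx3 strong. The photoreceptor sum under DEX was 1588 to 2707 CPM in wild-type siblings and 9.13 to 13.7 in rx3 strong, and its part was again not tested.

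Pkmb measured 296, 188, 100 and 83.4 CPM in wild-type siblings under DEX and 457, 261, 168 and 238 in rx3 strong, higher at 4 of 4 time points in overlapping ranges (log2 0.84 ± 0.18, adjusted p = 0.0189, lost without either ZT15 library, up to an adjusted p of 0.057). Akr1a1a measured 4.28, 1.31, 0.974 and 2.79 CPM in wild-type siblings and 7.87, 3.86, 1.55 and 6.74 in rx3 strong. It was higher at each time point (log2 1.11 ± 0.22, adjusted p = 0.0129), a call lost without either ZT9 library or rx3 strong at ZT21 (adjusted p up to 0.0687). Aldh3b1, of a group that oxidizes fatty aldehydes in mammals, was higher in rx3 strong, at 17.6, 53.2, 54.1 and 24.5 CPM against 13.99, 25.2, 25.8 and 20.4 (log2 0.71 ± 0.17, adjusted p = 0.036, lost without any 1 of 4 libraries, up to an adjusted p of 0.174). Aldh3b2 was lower, with 10, 11, 23 and 6 counts against 23, 29, 70 and 47 (log2 -1.92 ± 0.34, adjusted p = 0.00833). Skeletal muscle markers summed to 22530 to 65340 CPM in wild-type siblings and 28230 to 63520 in rx3 strong under DEX, highest at ZT3 in each, and none of the 5 was called.

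A 24 h curve fitted in common to the 3 untreated genotypes was called in 13 of 54 members tested, or 24.1% against 16.7% of 22391 genes. This test asks whether the pooled libraries follow such a curve, not whether each genotype does. The sampling covered 24 h, so no fit here or under DEX can show that a curve repeats. For a gene that rises or falls throughout, a daily cycle and a steady change over these hours cannot be told apart. Without rx3 weak at ZT3 the count was 5, beside 2946 of 22760 genes. Without wild-type siblings or rx3 weak at ZT15 it was 7, beside 2870 of 22761 and 2834 of 22765 genes. In these fits the members' share was not clearly above that of all genes. By role the 13 were 6 of 15 members from triose phosphates to pyruvate, 3 of 6 of gluconeogenesis, 1 of 6 PFKFB enzymes, 2 of 15 tested of acetate, alcohols and aldehydes, and ldhba. Of the 27 other genes under the same headings, 12 were called. Fitted peaks fell between ZT1 and ZT6 for 12 of the 13, in the first part of the light phase, and the peak-to-trough difference ranged from 0.33 to 1.17 on the log2 scale. How many of all called genes peaked in this window was not counted, so the timing is not shown to be particular to the members.

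The exception in phase was CABZ01066502.1, the liver-type pyruvate kinase, with a fitted peak at ZT17.9 and a peak-to-trough difference of 1.15 (adjusted p = 0.000331). Its level was highest at ZT21 in each genotype and lowest at ZT3 or ZT9. The M-type copy pkma ran the other way, at 487, 441, 338 and 323 CPM in wild-type siblings, 410, 365, 320 and 290 in rx3 weak and 406, 370, 301 and 286 in rx3 strong. Its values fell from each time point to the next in all genotypes, with a fitted peak at ZT5.74 (adjusted p = 0.000678). Such a fall may also be a steady change and not a daily cycle.

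In the opposite direction of the pathway, pck2 (peak-to-trough 0.96, adjusted p = 0.00189), g6pca.2 (1.15, adjusted p = 0.00289) and g6pca.1 (1.17, adjusted p = 0.01) had fitted peaks at ZT1.42, ZT2.19 and ZT4.14. Phosphoglycerate kinase, pgk1, measured 525, 474, 408 and 431 CPM in wild-type siblings, 524, 448, 396 and 424 in rx3 weak and 443, 424, 361 and 424 in rx3 strong, lowest at ZT15 in each genotype (0.36, adjusted p = 0.0108). Pfkfb4 measured 38.8, 31.5, 21.9 and 32.3 CPM in wild-type siblings, 36.2, 28.9, 29.7 and 27.8 in rx3 weak and 38.0, 31.6, 20.1 and 31.8 in rx3 strong, with its highest value at ZT3 in each (0.66, adjusted p = 0.0045).

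Eno1b (0.52, adjusted p = 0.018), gapdhs (0.42, adjusted p = 0.0243) and eno1a (0.37, adjusted p = 0.034) were also called, as were aldh7a1, aldh16a1 and ldhba (adjusted p between 0.0214 and 0.0301). Leaving out 1 library cost the rhythm call of eno1a in 8 cases, of aldh16a1 and ldhba in 5, of gapdhs in 4, of eno1b in 3 and of aldh7a1, pgk1 and g6pca.1 in 2 (adjusted p up to 0.145). The calls of CABZ01066502.1, pkma, pck2, g6pca.2 and pfkfb4 held without each library.

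**Figure D5:**
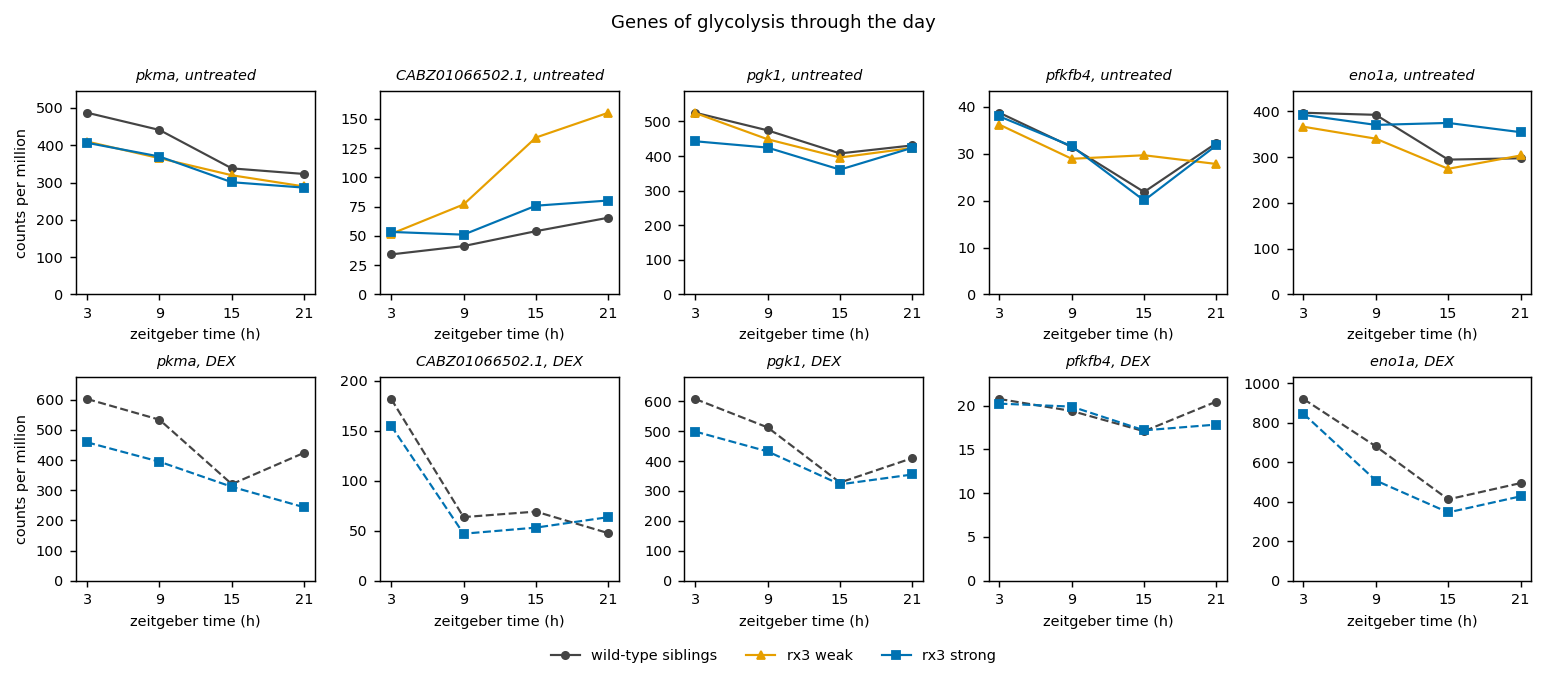
CPM of pkma, CABZ01066502.1, pgk1, pfkfb4 and eno1a against zeitgeber time, 1 library per point, untreated above and DEX below, each axis starting at 0 and scaled on its own. In untreated larvae pkma falls from 487 at ZT3 to 323 at ZT21 in wild-type siblings while CABZ01066502.1 rises from 34.2 to 65.6; under DEX both are highest at ZT3.

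No difference in rhythm between rx3 strong and wild-type siblings passed in untreated larvae, for any member or any of 22845 genes (0%), and neither did one between rx3 weak and wild-type siblings (0%). By edgeR, 0 members and 656 genes had an unadjusted p under 0.05 in the first test, and 0 members and 252 genes in the second. DESeq2's likelihood ratio test called 6 and 1 genes, and limma on the deposited values 0 and 0, with no member among them. Each fit used 9 coefficients for 12 libraries, which leaves 3 residual degrees of freedom.

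The profiles themselves can be described without a test. For g6pca.2 the peak-to-trough amplitude of each genotype's own 24 h curve, on the variance-stabilized log2 scale, came to 1.23 for wild-type siblings, 1.67 for rx3 weak and 0.565 for rx3 strong. For pck2 it was 1.04, 1.46 and 0.373, and for eno1a 0.58, 0.431 and 0.0756. For pkma it was 0.685, 0.474 and 0.549. Over the 51 members with a mean of at least 6 on that scale the median came to 0.343 for wild-type siblings, 0.285 for rx3 weak and 0.281 for rx3 strong, where all genes of that level had 0.317, 0.313 and 0.313. A smaller amplitude than in wild-type siblings was found for 28 of the 51 in rx3 strong, against 52.7% of all such genes, and for 29 of the 51 in rx3 weak, against 49.5%.

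When each gene was assigned to 1 of the study's rhythm models by the Bayesian information criterion (BIC), 16 of these 51 members fell into the models in which rx3 strong has no rhythm or a rhythm of its own. That is 31.4%, close to the 31% of 19605 genes, and with the small-sample Akaike criterion (AICc) in place of BIC the count was 6. The model of 1 rhythm shared by all genotypes took 4 members (pkma, akr1a1b, aldh3a1 and aldh7a1), or 7.84% against 11.9%. The 16 include pck2, g6pca.2, eno1a, eno1b, gapdhs, pgk1 and pfkfb4l, of which all but pfkfb4l were also called for the common curve. For these members the call of the common curve does not show a rhythm in rx3 strong, and the difference in rhythm was not called either.

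Under DEX, a common 24 h curve was called in 5 of 55 members (9.09%, against 5.33% of 23411 genes). DESeq2 called 19 members and 3486 of 20233 genes, and limma 0 members and 150 of 25590 genes. A fit with time as a factor called 11 members and 2936 of 23411 genes. The 5 were eno1a, pkmb, akr1a1a, aldh7a1 and aldh3b1 (adjusted p between 0.0153 and 0.0469), with eno1a and aldh7a1 also called in untreated larvae. Eno1a measured 920, 681, 412 and 494 CPM in wild-type siblings under DEX and 846, 508, 346 and 427 in rx3 strong, a fitted peak-to-trough difference of 1.31 with a peak at ZT4.04. Each of the 5 calls was lost without any 1 of 2 to 7 libraries (adjusted p up to 0.177), among them wild-type siblings at ZT3, the library with the fewest reads, for eno1a, pkmb, aldh7a1 and aldh3b1. Without ZT3 in both genotypes, 0 members and 459 of 23264 genes were called. Without ZT9, ZT15 or ZT21 it was 8, 8 and 14 members, beside 1853 of 22918, 2566 of 22870 and 3264 of 23196 genes. The calls under DEX thus hang on the ZT3 libraries.

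No member differed in rhythm between the genotypes under DEX (0% of 23411 genes). By edgeR, 2 members, pdha1b and eno1b, and 305 genes had an unadjusted p under 0.05, and DESeq2 called 36 genes and limma 0, with no member among them. The model of 1 rhythm shared by both genotypes took 18 of 51 members, or 35.3% against 25.8% of 18367 genes, and with AICc the count was 1. Among them were eno1a, tpi1a, tpi1b, CABZ01066502.1 and g6pc3. The model of different rhythms took 13 of 51, or 25.5% against 23.2% of all such genes, including g6pca.1, eno1b, pgk1 and pkma. AICc could not choose this model, because its 6 coefficients leave that criterion undefined with 8 libraries. The median amplitude over the 51 was 0.735 for wild-type siblings and 0.504 for rx3 strong under DEX, where all genes of that level had 0.622 and 0.536. It was smaller in rx3 strong for 36 of the 51, against 58% of all such genes. How far these amplitudes rest on the ZT3 libraries was not tested.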

How the data were processed

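RNA-seq of whole zebrafish larvae covered 20 libraries, 1 per condition and time point. Per the study's methods, the authors mapped reads to Zv9 with STAR and counted uniquely mapped reads per Ensembl gene with HTSeq; the deposited count table holds these raw counts. The deposited log2 values were made by the authors with DESeq2 normalization and a variance stabilizing transformation. The labels give mixed TU, AB and WIK strains and the study AB.

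Groups came from the labels. Levels and rhythms were tested on the raw counts with edgeR 4.0.16 in R 4.3.3 (quasi-likelihood test, TMM scaling, filterByExpr), with Benjamini-Hochberg adjustment over all genes tested and an adjusted p threshold of 0.05. Standard errors are the log2 difference divided by the square root of the test's F value. Level fits held genotype and time point as factors, the interaction fit took the 16 libraries of wild-type siblings and rx3 strong with time as a factor within each set, and rhythm fits used a sine and cosine of 24 h. CPM are counts per 1000000 counted reads, with library sizes scaled by TMM separately for the untreated and the DEX libraries, and a level per kilobase divides CPM by the gene length of the count table. Since pools at different time points stand in for replicates, p-values measure the spread left after time, which may be partly technical. Rhythm models and each genotype's own amplitude came from a DESeq2 variance stabilizing transformation of the counts, made anew for each set; models were chosen by BIC for genes with a mean of at least 6, with a minimum BIC weight of 0.3 untreated and 0.5 under DEX, and are a description.

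Members and marker lists were chosen with earlier results of these data known. Of 96 marker symbols in 13 lists, 59 had an ID. Values by library, in the groups of the comparison concerned, are given for the 10 members with the largest change per comparison among those called. They are also given for members called against the direction of their role group, for the 8 with the smallest adjusted p of the common 24 h curve, and for the most abundant member of a group without any. Genes outside the members appear only as counts or sums. Alternatives were other scalings, filters, DESeq2 1.42.0, limma 3.58.1 on the deposited log2 values, fits without time or on the compared genotypes alone, other BIC weights and minimum means, AICc and leaving out libraries. The scripts were tested on simulated data.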

Additional observations from a re-analysis of the deposited data

Results flagged for a closer look

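Of 150 values checked for a library far from the other 3 of its group, 3 stood out, where chance gives about 1 in 20 among replicates. The libraries of a group are different time points, so that rate does not strictly apply and a daily change can set 1 of them apart. Tpi1a measured 24.6 CPM in wild-type siblings under DEX at ZT3, against 14.4 to 15.4 at the other times. Its highest value in rx3 strong under DEX, 13.8, was also at ZT3. Pfkfb2a measured 3.05 CPM in the same library, which has the fewest reads, against 8.59 to 8.80. G6pca.2 measured 132 CPM in rx3 strong under DEX at ZT15, against 205 to 216. It was lowest at ZT15 in every other group too.

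The genotype difference itself differed between DEX and untreated larvae for 3 members by edgeR's interaction term, by 1.29 on the log2 scale for g6pca.1, 1.21 for g6pca.2 and 0.92 for pck2. Library kit and drug cannot be told apart in this term.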

How the results depend on the processing

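No call of a member reversed under any alternative run. Every setting kept 12 of 24 calls of rx3 strong against wild-type siblings, 6 of 14 of rx3 weak, 6 of 12 of rx3 strong against rx3 weak, 3 of 10 under DEX, 1 of 3 interactions (g6pca.2), 4 of 13 common 24 h curves untreated and 0 of 5 under DEX. Without a time term, 6 members were lower in rx3 strong than in wild-type siblings, 3 were higher and 4 lower in rx3 weak, 3 were higher and 3 lower in rx3 strong against rx3 weak, and 0 were higher and 3 lower under DEX; this fit leaves the time differences in the error. Upper quartile scaling gave 8 higher in rx3 strong against rx3 weak. Limma on the deposited values gave 2 higher and 3 lower under DEX, and 8 common curves untreated and 0 under DEX (2995 and 150 of 25590 genes). DESeq2 gave 19 common curves under DEX (3486 of 20233 genes) and a time factor 11 (2936 of 23411 genes). A negative interaction was called for 1 member by DESeq2 and for 1 without a filter. With AICc, 6 members had rx3 strong without rhythm or with its own, and 1 had the same rhythm in both genotypes under DEX. Different rhythms under DEX could not be chosen by AICc with so few libraries. With so few libraries AICc also penalizes every added coefficient more than BIC does, so its counts are not on a par with those by BIC. The cause of these shifts was not tested.

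Leaving out 1 library or time point gave 8 to 12 members higher and 6 to 14 lower for rx3 strong against wild-type siblings, 2 to 7 and 4 to 7 for rx3 weak, 3 to 7 and 4 to 9 for rx3 strong against rx3 weak, and 1 to 5 and 3 to 5 under DEX. Interactions ranged from 1 to 5 positive and 0 to 2 negative, and common curves from 4 to 14 untreated and 0 to 14 under DEX. Over all genes, common curves then ranged from 2745 to 4026 untreated and from 135 to 3264 under DEX. Rhythm differences of members stayed at 0. The labels carry no replicate numbers. The level fits are paired by time point through its factor, and the fits without a time term are the unpaired ones. In the DEX level fits and the interaction fit each time point holds only the 2 genotypes. Leaving out 1 library there leaves its partner with almost no information on genotype, so the counts of libraries that cost a call are not independent. With 1 library per condition and time, pdha1b, aldh3b2, eno4 and g6pcb rest on few reads.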
